A study of Mus musculus with 4 samples.

Results

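The genes of glycolysis and of the transcriptional response to low oxygen were examined as a group in RNA-seq libraries of mouse fibroblasts that do or do not carry an autosomal *Xist* transgene. The group holds 34 of 23924 genes with FPKM values. They were chosen by gene symbol for their known roles, with earlier results of these data known. All 34 were present, and 33 of them reached the mean of 0.5 FPKM that was required for testing. FPKM is the number of sequenced fragments of a gene normalized for the length of the gene and the depth of the library, so that levels of different genes can be compared within a library.

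Glycolysis converts glucose into pyruvate in the cytosol, and cells that do not oxidize the pyruvate in mitochondria reduce it to lactate and export it. Many genes of this route are targets of the hypoxia-inducible factors (HIF). In the presence of oxygen, prolyl hydroxylases mark the HIF alpha subunits for degradation, and when oxygen is short the stabilized subunits bind promoters that carry the core letters ACGTG or GCGTG. Proliferating and immortalized fibroblasts in culture are known to use glycolysis heavily even with oxygen at hand.

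Polyadenylated RNA was sequenced, and the cells were tail tip fibroblasts of male mice, immortalized with SV40 large T cDNA and tetraploid as a result. TG cells came from Tg2087/+ animals of the line C57BL/6J-TgBAC8-2087, which carry *Xic* sequence with *Xist* at a single autosomal locus, and WT cells came from +/+ littermates out of the same cross to wildtype C57B1/6J mice. Each genotype had 2 libraries, TG 1 and TG 2 and WT 1 and WT 2, and no hypoxia treatment is named for any of them. Whether both libraries of a genotype stem from different animals or cultures is not stated, so the p-values below measure only the spread between these libraries, which may be technical, and a difference between the immortalized cell populations and an effect of the genotype cannot be told apart.

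The read totals by which the FPKM were scaled ran from 9465712 to 14639946, as worked out from the FPKM steps. Reads outside these totals are not known. The WT libraries held *Xist* at 0 and 0.108 FPKM, the TG libraries held it at 2.31 and 2.28, and so every library matched its label. The fibroblast markers *Vim*, *Col1a1*, *Thy1* and *S100a4* were abundant, whereas *Lum* was listed at 0 in all 4 libraries and *Dcn* at 0 in both WT libraries. Of the 10 fibroblast markers 9 were above 0, and their sum ran from 5596 to 6007 FPKM in WT and from 5192 to 5642 in TG. Of the 8 that were tested, 2 fell and 0 rose in TG at an adjusted p under 0.05 in limma, beside 1.54% and 2.59% of all tested genes. The 2 were *Col1a1* (867 and 789 FPKM in WT, 407 and 539 in TG, adjusted p = 0.0491) and *Pdgfrb* (56.8 and 57.3 in WT, 31.7 and 26.8 in TG, adjusted p = 0.0165). Voom called 3 lower, with *Col1a2* (adjusted p = 0.00771) besides these, and 1 higher, *Pdgfra*, at 0.0999 and 0.307 FPKM in WT and 0.823 and 1.13 in TG (adjusted p = 0.0298). Of all tested genes, voom called 4.43% lower and 3.57% higher at that threshold. The part of these markers in the results below was not tested. The 6 keratinocyte markers summed to at most 3.15 FPKM with *Krt5* and *Krt14* at 0, the 4 endothelial markers to at most 0.567, the 4 skeletal muscle markers to at most 0.435 and the 4 melanocyte markers to at most 0.239. Of the 4 leukocyte markers *Cd68* alone was above 0, at 5.12 to 12.1 FPKM. In such bulk RNA, fewer cells of a kind and less RNA per cell cannot be told apart.

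The levels of the 34 genes covered more than 3 orders of magnitude. *Pkm*, the pyruvate kinase gene, was the most abundant with a mean of 1787 FPKM over the 4 libraries (range 1358 to 2129), followed by the triosephosphate isomerase gene *Tpi1* (778), the aldolase gene *Aldoa* (473), the lactate dehydrogenase gene *Ldha* (288) and the glucose-6-phosphate isomerase gene *Gpi1* (178). The ranges over the 4 libraries of *Tpi1* and *Aldoa* overlapped, whereas those of the other neighbours in this order did not. At the other end were *Aldoc* (0.434), *Epas1* (0.540), *Slc2a3* (0.833), *Pfkfb4* (1.13) and *Egln3* (1.40), each of which overlapped in its range with the next. Summed over all 34 genes, WT came to 3819 and 3144 FPKM and TG to 4527 and 4668, a sum that is dominated by *Pkm* and *Tpi1*.

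**Figure D1:**
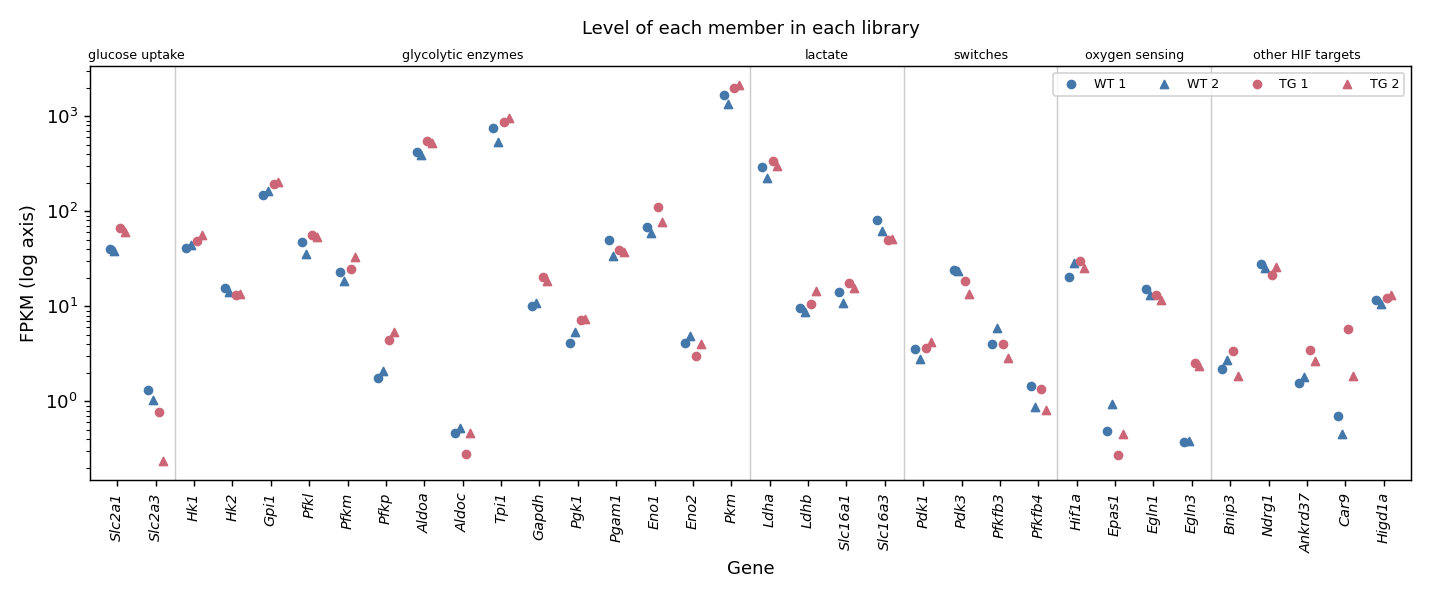
FPKM of each of the 34 genes (log axis) in WT 1, WT 2, TG 1 and TG 2, with the genes grouped by their role. Levels run from 2129 FPKM for *Pkm* in TG 2 to 0.237 for *Slc2a3* in TG 2, and the red TG points lie above the blue WT points for most of the glycolytic enzymes.

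The main comparison asked which of these genes differed between TG and WT cells. *Egln3*, a HIF prolyl hydroxylase and itself a HIF target, the platelet-type phosphofructokinase gene *Pfkp* and *Gapdh*, the gene of glyceraldehyde-3-phosphate dehydrogenase, rose in TG by 6.42-fold, 2.55-fold and 1.86-fold in mean FPKM. They were the 3 of 33 tested genes with an adjusted p under 0.05 (limma on log2(FPKM + 0.5), Benjamini-Hochberg adjustment over 11524 genes), and 0 of 33 fell at that threshold. Over all 11524 genes, 2.59% rose and 1.54% fell at an adjusted p under 0.05. With the stricter rule of an adjusted p under 0.01 together with a doubling or halving (1 on the log2 scale), 0 of the 33 were called in either direction by limma, where 0.607% of all genes were called higher and 0.469% lower.

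The voom method on the recovered whole reads likewise called 0 of 33 under the strict rule, where it called 1.08% of all genes higher and 1.33% lower. At an adjusted p under 0.05 it called 4 genes higher, namely *Egln3*, *Pfkp*, the glucose transporter gene *Slc2a1* and the carbonic anhydrase gene *Car9*, and 0 lower, beside 3.57% and 4.43% of all genes. *Gapdh* was not among them. At an unadjusted p under 0.05 limma placed 10 of the 33 genes higher and 2 lower (*Slc16a3* and *Pdk3*), against 12.7% and 6.88% of all genes.

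Beyond *Egln3*, *Pfkp*, *Gapdh*, *Slc2a1* and *Car9*, no gene of the 33 passed an adjusted p under 0.05 in limma or voom. Both TG libraries lay above both WT libraries for 20 of the 33 tested genes and below them for 8, against 30.2% and 20.3% of all tested genes. The log2 fold change was above 0 for 22 genes and below 0 for 11, and over all tested genes it was above 0 for 6623 and below 0 for 4901. Its median was 0.33 over the 33 genes and 0.071 over all tested genes, and it ran from -0.78 for *Slc2a3* to 1.85 for *Car9*. After quantile normalization, which moved the median of all genes to -0.013, the median of the 33 genes was 0.21. By role, the median was 0.43 for the 14 tested enzymes of glycolysis, 0.37 for the 4 lactate genes, 0.17 for the 5 other HIF targets, -0.0064 for the 4 oxygen sensing genes and -0.27 for the 4 genes that switch flux between branches.

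**Figure D2:**
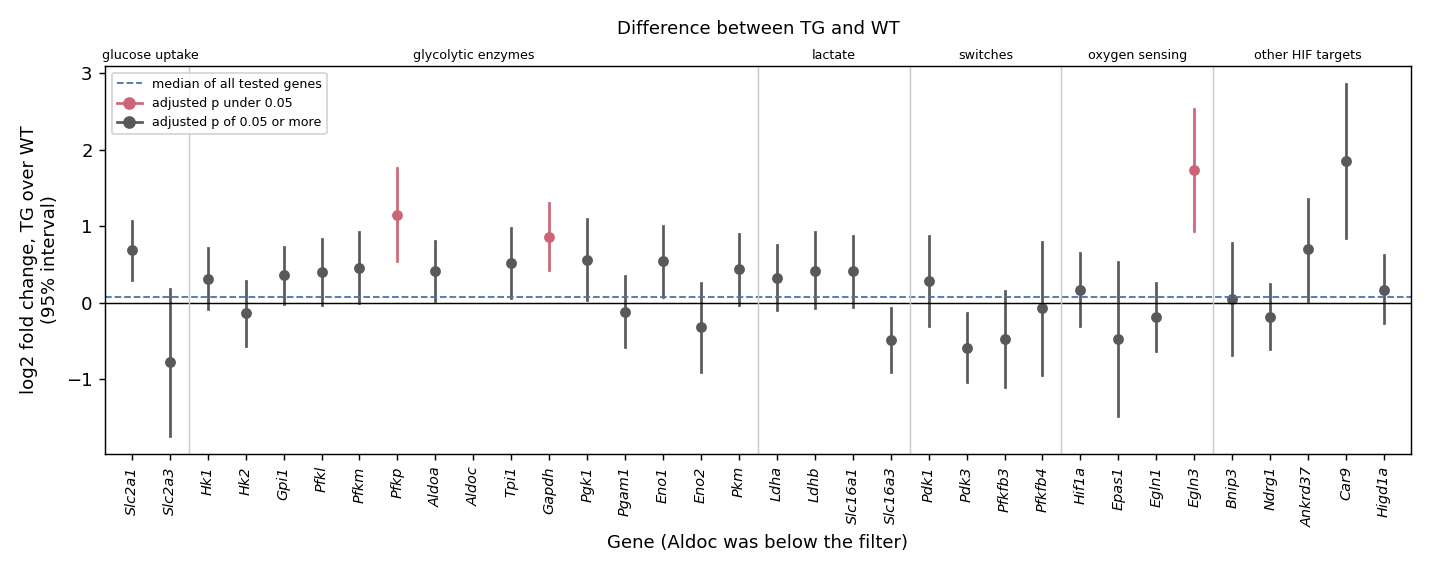
Log2 fold change of TG over WT with its 95% interval for the 33 tested genes, by role, on the log2(FPKM + 0.5) scale (limma, 2 libraries per genotype), with a dashed line at the median of all tested genes (0.071). The intervals of *Egln3* (0.94 to 2.53), *Pfkp* (0.55 to 1.76) and *Gapdh* (0.43 to 1.30), in red, are those with an adjusted p under 0.05, and *Car9* has the highest point at 1.85.

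The HIF core letters were found in a larger share of the promoters of these genes than of all promoters. RefSeq (GRCm38.p6) start sites with windows from 250 bases before to 50 bases after the start were at hand for 31 of the 34 genes, not for *Slc2a3*, *Ndrg1* or *Epas1*. Searched on both strands, ACGTG was found in a window of 22 of the 31 genes (71.0%), against 21.8% of 27025 genes with such windows and 29.9% of the 9196 tested genes with one. ACGTG or GCGTG was found for 28 of the 31 (90.3%), against 46.7% of all genes. The palindrome CACGTG, which holds ACGTG on both strands and is also the E-box of other factors, stood in 13.6% of the 44 windows of these genes and in 7.15% of all windows. These genes were listed partly because they are known HIF targets, so the share describes the choice of genes.

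The 30 bases around the match that lies nearest before the start are shown for 10 genes, in the direction of each gene and 5′ to 3′, with ACGTG, its reverse complement CACGT or, for *Pfkp*, GCGTG in capitals. They are shown because the first 4 belong to genes called higher in TG by limma or voom. The fifth belongs to another HIF target, *Ankrd37*, with a ratio of 1.81. The last 5 hold ACGTG and were called by neither. *Gapdh*, also called higher by limma, is not shown, although its window held GCGTG before the start and ACGTG after it.

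Egln3: tgtgcatctcagACGTGagatccaggtttt
Car9: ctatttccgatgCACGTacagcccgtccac
Slc2a1: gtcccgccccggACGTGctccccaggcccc
Pfkp: cgctcgggcgggGCGTGggcggctcctgcg
Ankrd37: cagtgtttgggtACGTGaggccgcagcggg
Egln1: gggccgtggtgtACGTGcagcgcgcgcgga
Ldha: cgtgggttcccgCACGTccgctgggctccc
Slc16a3: cgtgcgcgggggACGTGccgcgcgacggat
Pgk1: aaatggaagtagCACGTctcactagtctcg
Pdk3: cgcgcgccgcgtACGTGcggcggcagatcc

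The site of *Egln3* is at chr12:54204086-54204115 on the minus strand, and its letters begin at -229, counting from -1 as the base before the start. The site of *Car9* is at chr4:43506996-43507025 on the plus strand (-18), that of *Slc2a1* at chr4:119108697-119108726 on the plus strand (-36), that of *Pfkp* at chr13:6648777-6648806 on the minus strand (-23) and that of *Ankrd37* at chr8:45999839-45999868 on the minus strand (-6). The sites of the other 5 genes are at chr8:124949305-124949334 on the minus strand for *Egln1* (-68), chr7:46845758-46845787 on the plus strand for *Ldha* (-34), chr11:120949041-120949070 on the plus strand for *Slc16a3* (-14), chrX:106186957-106186986 on the plus strand for *Pgk1* (-131) and chrX:93832186-93832215 on the minus strand for *Pdk3* (-53). The median log2 fold change was 0.33 for the 21 tested genes with ACGTG and 0.40 for the 9 without it, and of the 227 genes of the whole table that rose at an adjusted p under 0.05 and had a window, 27.8% held it.

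Glucose enters fibroblasts mainly through the transporter that *Slc2a1* encodes. *Slc2a1* stood at 40.5 and 38.1 FPKM in WT and at 66.6 and 60.7 in TG, so both TG libraries lay above both WT libraries. The ratio of the means was 1.62, and the log2 fold change of 0.69 ± 0.17 (SE) had an adjusted p of 0.0554 in limma and of 0.0256 in voom, so that its call depended on the model. *Slc2a3*, the gene of a high-affinity transporter known mainly from neurons, was rare and had the opposite sign, at 1.30 and 1.02 FPKM in WT and 0.770 and 0.237 in TG. These values rest on 47 and 57 reads in WT and 35 and 10 in TG, and the difference did not pass (log2 fold change -0.78, 95% interval -1.74 to 0.18, adjusted p = 0.364, limma). *Slc2a1* made up 97.1% ± 0.353 (SD, n = 2) of the summed FPKM of this pair in WT and 99.2% ± 0.533 in TG.

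The first steps of glycolysis trap glucose in the cell and commit it to breakdown. *Hk1*, the housekeeping hexokinase gene, was at 40.7 and 44.0 FPKM in WT and 49.1 and 56.5 in TG (adjusted p = 0.374, limma). The liver-type phosphofructokinase gene *Pfkl* was at 47.8 and 35.7 in WT and 56.1 and 53.5 in TG (adjusted p = 0.285). Both were above the WT range in both TG libraries, with 95% intervals of the log2 fold change, -0.081 to 0.71 and -0.028 to 0.83, that reached slightly below 0. *Hk2*, the inducible hexokinase gene and a known HIF target, ranged only from 13.2 to 15.4 FPKM and was lower in both TG libraries by a small amount (log2 fold change -0.14, adjusted p = 0.744). *Gpi1* at 150 to 205 FPKM and the muscle-type gene *Pfkm* at 18.4 to 32.8 were higher in both TG libraries without passing the test (adjusted p of 0.278 and 0.259).

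*Pfkp* was the enzyme of glycolysis with the largest difference. Its level was 1.75 and 2.08 FPKM in WT (67 and 123 reads) and 4.45 and 5.33 in TG (214 and 238 reads). The 2 genotypes were far apart relative to the spread within each, with a log2 fold change of 1.15 ± 0.27 (SE; adjusted p = 0.0428 in limma and 0.0147 in voom). Leaving out any library ended the limma call, with adjusted p-values of 0.164 without WT 1, 0.204 without WT 2, 0.0838 without TG 1 and 0.160 without TG 2, while the log2 fold change stayed between 1.04 and 1.27. *Pfkp* remained the minor phosphofructokinase gene, at 3.06% ± 0.901 of the summed *Pfkl*, *Pfkm* and *Pfkp* level in WT and 5.52% ± 0.416 in TG (SD, n = 2).

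The middle enzymes split the sugar and carry out the first oxidation and the first step that yields ATP. *Aldoa* stood at 420 and 392 FPKM in WT and 553 and 529 in TG. *Tpi1* stood at 746 and 542 in WT and 877 and 948 in TG. Both were higher in each TG library than in either WT library, and neither passed the test (log2 fold change 0.42 and 0.52, adjusted p = 0.226 and 0.201, limma). *Aldoc*, the brain-type aldolase gene, was below the threshold for testing, at 0.277 to 0.527 FPKM.

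*Gapdh* rose from 9.96 and 10.8 FPKM in WT to 20.1 and 18.5 in TG (127, 213, 323 and 276 reads). The groups did not overlap, and the log2 fold change was 0.86 ± 0.19 (SE) with an adjusted p of 0.0352 in limma and 0.0625 in voom. Without WT 1, WT 2, TG 1 or TG 2 the adjusted p of limma was 0.131, 0.177, 0.159 and 0.0949. *Pgk1*, the X-linked phosphoglycerate kinase gene that follows *Gapdh* in the pathway, was at 4.10 and 5.42 FPKM in WT and 7.11 and 7.28 in TG (65, 133, 142 and 135 reads). Its TG libraries were also above its WT libraries, with a log2 fold change of 0.56 ± 0.24 and an adjusted p of 0.227.

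The levels of *Gapdh* and *Pgk1* were far below those of their pathway neighbours *Tpi1*, *Aldoa* and *Pkm*, and both genes share much of their sequence with other genes. Of all stretches of 50 bases in the annotated transcripts of *Gapdh* (GENCODE, GRCm38), 58.4% also occur in another gene, spread over 218 genes of which 213 are pseudogenes. For *Pgk1* the share was 68.0%, for the enolase gene *Eno1* 49.5%, for the phosphoglycerate mutase gene *Pgam1* 41.5%, for *Ldhb* 21.0%, for *Gpi1* 18.6% and for *Pkm* 18.4%. It was 0% for *Slc2a1*, *Pfkp*, *Egln3*, *Car9* and *Ankrd37*. How reads that match several genes were counted is not given in the sources used here, so the levels of the genes with a high share, and the rise of *Gapdh*, are uncertain, and the part of shared reads in them was not tested.

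**Figure D3:**
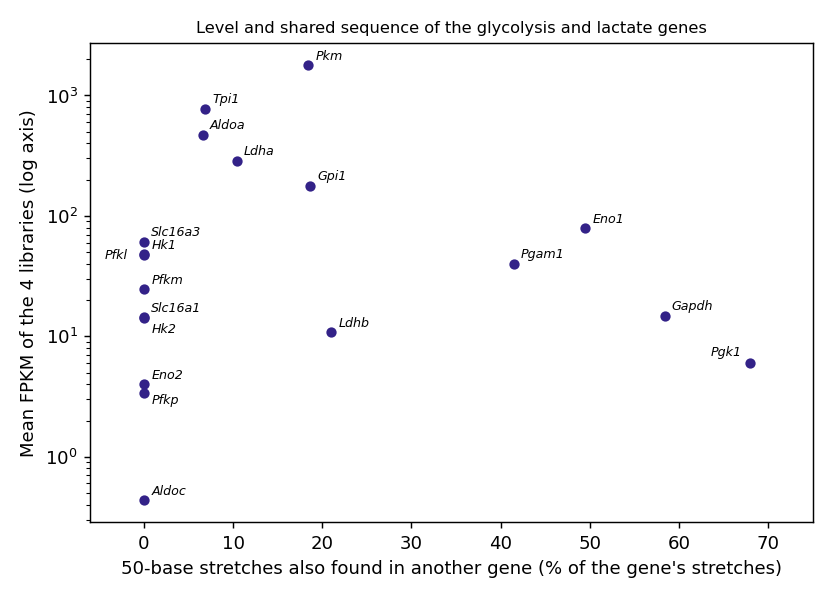
Mean FPKM over the 4 libraries (log axis) against the percent of a gene's 50-base stretches that occur in another gene, for the 19 genes of glycolysis and lactate handling. *Pgk1* (68.0%, 5.98 FPKM) and *Gapdh* (58.4%, 14.8 FPKM) have the highest shares, whereas *Pkm* (18.4%) and *Tpi1* (6.83%) have the highest levels.

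The last enzymes lead to pyruvate. *Eno1* was at 68.0 and 58.9 FPKM in WT and 111 and 76.5 in TG, with both TG libraries above the WT libraries but far from each other (log2 fold change 0.54 ± 0.21, adjusted p = 0.188, limma). Its near copy *Eno1b* holds 48.4% of the 50-base stretches of *Eno1* and was listed at 181, 153, 168 and 222 FPKM in WT 1, WT 2, TG 1 and TG 2, more than *Eno1* itself. Summed, the pair came to 249 and 212 FPKM in WT and 279 and 299 in TG, a ratio of 1.25 in place of 1.47 for *Eno1* alone. *Pgam1* overlapped between genotypes at 34.1 to 50.3 FPKM. *Eno2*, the neuronal enolase gene, was lower in both TG libraries, over a range of 3.02 to 4.89 FPKM, without passing the test (adjusted p = 0.563). *Pkm*, although it was higher in both TG libraries by a ratio of 1.35, did not pass (log2 fold change 0.44, 95% interval -0.025 to 0.90, adjusted p = 0.280).

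Lactate is made by lactate dehydrogenase and leaves the cell through monocarboxylate transporters. *Ldha*, the form that favours lactate formation, was at 289 and 223 FPKM in WT and 338 and 302 in TG (log2 fold change 0.33, adjusted p = 0.379, limma). It accounted for 96.5% ± 0.441 of the summed *Ldha* and *Ldhb* level in WT and 96.2% ± 1.12 in TG (SD, n = 2), and the libraries of the 2 genotypes overlapped in this share. The exporter gene *Slc16a3*, a known HIF target, had the opposite sign, at 81.5 and 62.1 FPKM in WT and 49.6 and 51.5 in TG. Both TG libraries were below both WT libraries, with a log2 fold change of -0.49 ± 0.19 (SE), an unadjusted p of 0.0261 and an adjusted p of 0.185 (voom 0.0603). The related transporter gene *Slc16a1* was higher in both TG libraries over a range of 10.8 to 17.5 FPKM (adjusted p = 0.319). Of the summed level of the pair, *Slc16a1* made up 14.6% and 14.9% in WT but 26.0% and 23.2% in TG, with no overlap.

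**Figure D4:**
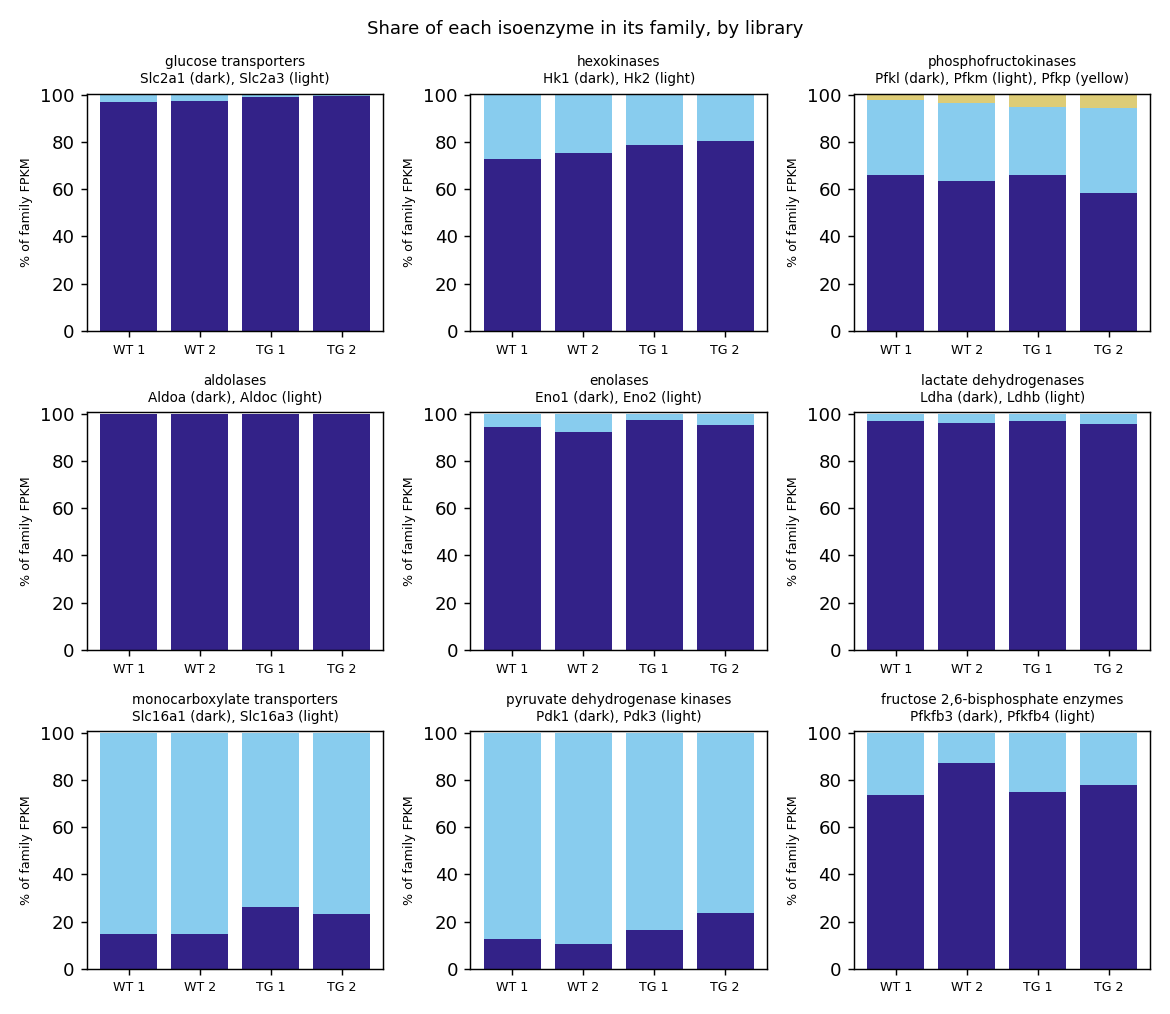
Percent of the summed FPKM that each listed gene contributes to its family, in each of the 4 libraries, for 9 families. *Slc16a1* goes from 14.6% and 14.9% in WT to 26.0% and 23.2% in TG and *Pfkp* from 2.43% and 3.70% to 5.23% and 5.82%, while the most abundant of the listed genes of each family is the same in all 4 libraries.

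Among the listed genes of the 9 families, the more abundant one was the same in all 4 libraries. This does not cover genes outside the list. *Eno1b* exceeded *Eno1* in every library, and *Eno3* (83.6 and 57.7 FPKM in WT, 71.6 and 72.6 in TG) exceeded *Eno1* in WT 1. *Pfkfb1* (4.19 and 3.26 FPKM in WT, 4.86 and 5.13 in TG) exceeded *Pfkfb3* in each library but WT 2. These genes were named after their values were seen. *Hk1* held 74.0% ± 2.08 of the hexokinase pair in WT and 79.7% ± 1.28 in TG, and *Pdk1* held 11.6% ± 1.67 of the *Pdk1* and *Pdk3* level in WT and 20.0% ± 4.89 in TG (SD, n = 2). In both cases, as for *Slc16a1*, *Slc2a1*, *Pfkp*, *Aldoa* and *Eno1*, the TG libraries lay above the WT libraries. For *Aldoa* the share rounded to 99.9% in all 4 libraries. The share of *Eno1* was taken against *Eno2* alone. It leaves out *Eno1b* and *Eno3*, so it does not describe the enolase genes as a whole. The share of *Pdk1* likewise leaves out *Pdk4* and *Pdk2*. *Pdk2*, named after its values were seen, was at 4.22 and 4.76 FPKM in WT and 5.09 and 2.58 in TG. The shares of *Pfkl*, *Pfkm*, *Ldha* and *Pfkfb3* overlapped between genotypes. The shares are described without a test, and an exact permutation test of 2 against 2 libraries could give no p under 1 in 3.

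Pyruvate dehydrogenase kinases hold pyruvate back from oxidation in the mitochondria, and the bifunctional *Pfkfb* enzymes set the level of the activator of phosphofructokinase. The X-linked kinase gene *Pdk3* was at 24.1 and 23.8 FPKM in WT and 18.3 and 13.6 in TG, so that the TG libraries were lower and also more spread. Its log2 fold change was -0.59 ± 0.21 (SE), with an unadjusted p of 0.0166 and an adjusted p of 0.147 (voom 0.0751). *Pdk1*, a classical HIF target, ranged from 2.77 to 4.17 FPKM and was slightly higher in both TG libraries (adjusted p = 0.624). *Pfkfb3* was at 4.05 and 5.96 FPKM in WT and 4.05 and 2.87 in TG, the TG 1 value lying just below that of WT 1 before rounding (log2 fold change -0.47, adjusted p = 0.405), and *Pfkfb4* overlapped between genotypes at 0.813 to 1.46 FPKM.

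Of the 4 genes of oxygen sensing, *Egln3* was the 1 that passed the test. It was at 0.376 and 0.378 FPKM in WT and at 2.52 and 2.33 in TG, which rests on 9 and 14 reads in WT and 76 and 65 in TG. The libraries of each genotype were nearly equal and the genotypes were far apart. The log2 fold change was 1.74 ± 0.36 (SE; adjusted p = 0.0253, limma) on the log2(FPKM + 0.5) scale, which understates the change of a gene this low, and 2.57 in voom (adjusted p = 0.0261). The limma call held without TG 2 (adjusted p = 0.0470) and was lost without TG 1 (0.0653), WT 1 (0.100) or WT 2 (0.168), with a log2 fold change of 1.69 to 1.78 throughout.

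The other 3 genes of the sensing step did not pass the test. *Egln1*, the gene of the main HIF prolyl hydroxylase and also a HIF target, was at 15.1 and 13.3 FPKM in WT and 13.1 and 11.7 in TG (log2 fold change -0.19, 95% interval -0.63 to 0.26, adjusted p = 0.664, limma). *Hif1a*, whose protein is regulated mainly by degradation rather than by its RNA, was at 20.5 and 28.8 FPKM in WT and 30.1 and 25.0 in TG, and the genotypes overlapped (log2 fold change 0.17, 95% interval -0.30 to 0.65). *Epas1*, the gene of HIF-2 alpha, was near the threshold for testing at 0.487 and 0.945 FPKM in WT and 0.274 and 0.452 in TG (adjusted p = 0.619). In WT the level of *Egln1* was far above that of *Egln3* in both libraries, and it was still above it in both TG libraries.

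Of the 5 other HIF targets, 0 passed an adjusted p under 0.05 in limma, 2 (*Car9* and *Ankrd37*) had an unadjusted p under 0.05, and voom called *Car9*. *Car9*, a membrane carbonic anhydrase that is among the best known HIF targets, was at 0.700 and 0.453 FPKM in WT and at 5.79 and 1.85 in TG, from 12, 12, 125 and 37 reads. Both TG libraries were above both WT libraries, but TG 1 was far above TG 2. The log2 fold change was 1.85 ± 0.46 (SE), with an adjusted p of 0.0508 in limma and 0.0448 in voom. *Car9* depended on its TG libraries: without TG 2 the log2 fold change was 2.56 with an adjusted p of 0.00449, which passed the strict rule, and without TG 1 it was 1.13 with an adjusted p of 0.233.

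*Ankrd37*, an ankyrin repeat gene known as a HIF target, was at 1.54 and 1.81 FPKM in WT and 3.44 and 2.63 in TG (11, 20, 31 and 22 reads). The TG libraries were the higher ones, but the difference did not pass the test (log2 fold change 0.70, 95% interval 0.028 to 1.36, adjusted p = 0.236, limma, and 0.636 in voom). *Higd1a*, the gene of a mitochondrial protein, was higher in both TG libraries over a narrow range of 10.6 to 13.1 FPKM (adjusted p = 0.691). The mitophagy gene *Bnip3* at 1.86 to 3.39 FPKM and the stress response gene *Ndrg1* at 21.2 to 28.2 FPKM overlapped between genotypes.

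**Figure D5:**
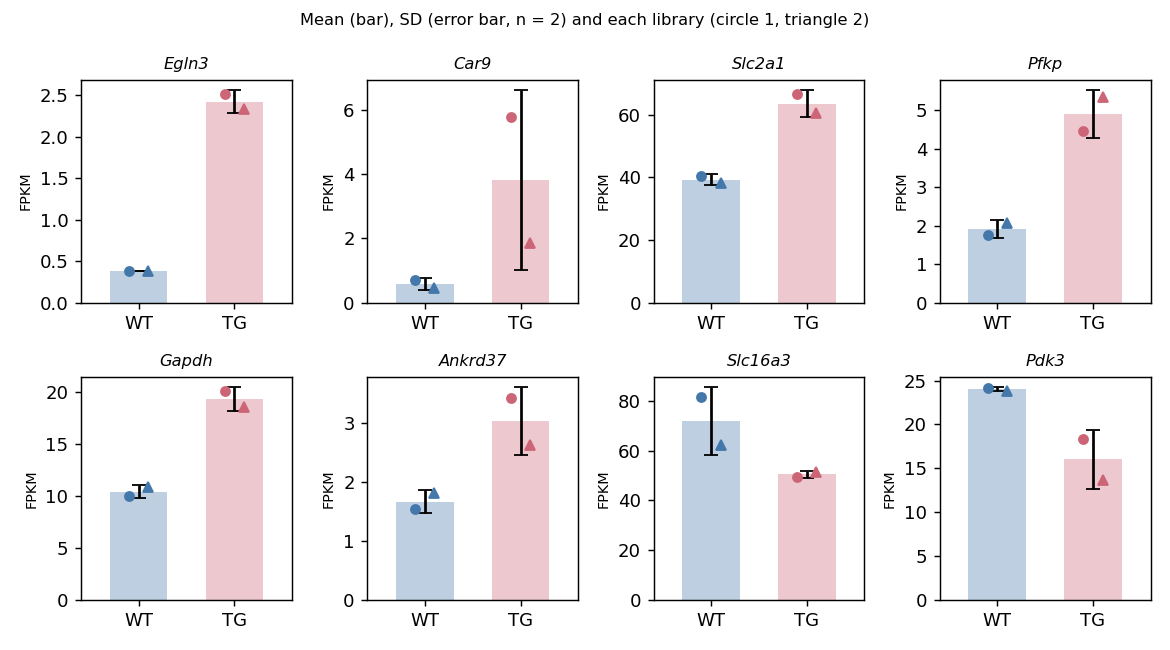
FPKM of 8 genes in WT and TG, with bars at the mean, error bars of 1 SD (n = 2) and a point for each library, each axis starting at 0. The TG points lie above the WT points for *Egln3*, *Car9*, *Slc2a1*, *Pfkp*, *Gapdh* and *Ankrd37* and below them for *Slc16a3* and *Pdk3*, and the TG points of *Car9* are at 5.79 and 1.85.

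Further genes of the same pathways were read from lists of known pathway members. Of 39 other genes of glycolysis and pyruvate use, 24 were tested, with a median log2 fold change of 0.061, beside 0.071 over all tested genes. The mitochondrial pyruvate carrier gene *Mpc2* rose, from 15.8 and 16.1 FPKM in WT to 27.4 and 31.2 in TG (log2 fold change 0.86 ± 0.19, adjusted p = 0.0303, limma, and 0.111 in voom). The gene of bisphosphoglycerate mutase, *Bpgm*, fell from 81.2 and 89.1 FPKM to 47.8 and 54.3 (log2 fold change -0.73 ± 0.18, adjusted p = 0.0452, and 0.00560 in voom). For both genes the libraries of the genotypes were well apart. They were 1 gene higher and 1 lower of 24 at an adjusted p under 0.05 in limma, beside 2.59% and 1.54% of all tested genes. Voom called 0 of the 24 higher and 2 lower at that threshold, beside 3.57% and 4.43% of all tested genes. The 2 were *Bpgm* and the pyruvate dehydrogenase kinase gene *Pdk4*, which was named after its values were seen. *Pdk4* was at 1.92 and 1.74 FPKM in WT, at 1.24 in TG 1 and listed at 0 in TG 2 (adjusted p = 0.0395 in voom and 0.211 in limma).

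Of 39 other genes of oxygen sensing and HIF targets, 32 were tested. Their median log2 fold change was -0.043, with 16 above 0 and 16 below, and the median over all tested genes was 0.071. *Cited2*, a HIF target that restrains HIF by competing for its coactivator, rose from 177 and 211 FPKM in WT to 344 and 379 in TG (log2 fold change 0.90 ± 0.18, adjusted p = 0.0228, limma, and 0.00102 in voom). *Narf* fell from 13.4 and 13.1 FPKM to 6.85 and 6.26 (log2 fold change -0.96 ± 0.21, adjusted p = 0.0286, and 0.00162 in voom). These were the 2 genes of the 32 past an adjusted p of 0.05 in limma, where 2.59% of all tested genes rose and 1.54% fell. Voom called 1 of the 32 higher and 3 lower at an adjusted p under 0.05, beside 3.57% and 4.43% of all tested genes. Besides *Narf*, the lower ones included the clock and hypoxia repressor gene *Bhlhe40*, named after its values were seen. *Bhlhe40* was at 40.6 and 57.4 FPKM in WT and 30.8 and 28.9 in TG (adjusted p = 0.00975, voom).

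The 7 tested genes of the pentose phosphate pathway, which branches off after hexokinase to make NADPH and ribose, had a median log2 fold change of 0.36. The median over all tested genes was 0.071. Of the 7, 0 passed an adjusted p of 0.05 in limma or in voom. *Pgls* and *Rpe*, named after their values were seen, had an unadjusted p under 0.05 in limma, 0.0117 and 0.0396, and were higher in both TG libraries. At that threshold 12.7% of all tested genes were higher in TG and 6.88% lower. *Pgls* stood at 47.0 and 39.3 FPKM in WT and 66.6 and 60.2 in TG.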

How the data were processed

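Polyadenylated RNA, selected from total RNA, was sequenced in 4 strand-specific libraries (2 WT, 2 TG). The authors mapped the read pairs with Rsubread (build mm10), summed them by gene and deposited FPKM, 1 column per library. FPKM is the only deposited unit. Whether the counting used strand, and how it treated reads with several matches, is not given in the sources used here.

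TG and WT were compared with limma 3.58.1 in R 4.3.3 (lmFit, then eBayes with trend) on log2(FPKM + 0.5). Genes whose mean FPKM reached 0.5, 11524 in all, were tested together, and p-values were adjusted by Benjamini-Hochberg. Because the deposited FPKM of a gene stand in ratios of whole numbers, whole reads were worked out from them for 15528 of 15530 genes above 0. These cover 99.37% to 99.45% of the read total by which the FPKM of each library were scaled. For 1709 genes the exonic length decided a common factor. These reads were tested with voom and median-ratio size factors as an alternative. Read numbers describe counting error only.

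The 34 genes and all lists were chosen with earlier results of these data known. Values per library are given where the adjusted p was under 0.05, where genotypes did not overlap and the log2 fold change reached 0.5 in size, and for the most abundant gene of each family, X-linked genes, HIF alpha subunits and prolyl hydroxylases. Other genes are given by range, and list genes are named at an adjusted p under 0.05. Shared stretches of 50 bases were counted in GENCODE transcripts, and promoter windows came from RefSeq. The limma fit was tested on simulated data, as was voom, there with plain library totals in place of the median-ratio size factors. The alternatives were other pseudocounts (0.1 and 1), filters, scalings and variance models, a replicate block, voom and each library left out in turn. Scripts ran in Python 3.11.15. One result of a list gene is not reported here.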

Additional observations from a re-analysis of the deposited data

How the results depend on the processing

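Of 427 log2 fold changes of the tested genes under 13 alternatives, 390 kept their direction and their side of an adjusted p of 0.05, 24 lost that threshold, 4 gained it and 9 changed sign. The number of genes higher in TG under the strict rule was 0 to 1 over the left-out libraries, 3 with the threshold at an adjusted p of 0.05, and 0 under the other alternatives; the number lower was 0 under all. At an adjusted p under 0.05, the 3 higher genes became 0 when all genes above 0 were tested, 1 without the variance trend, 1 after quantile normalization, 1 after upper quartile scaling and 0 to 2 over the left-out libraries; the single gene under each of these 3 fits was *Egln3*. With the replicate block the count was 0 (adjusted p = 0.0726 for *Egln3*, limma). Whether same-numbered libraries are paired is not stated. Their deviations had a correlation of -0.028 over the tested genes, which cannot decide this. Over all genes, 476 passed an adjusted p under 0.05 in either direction in the main fit. That number was 44 when all genes above 0 were tested and 254 without the variance trend. It was 411 after quantile normalization, 431 after upper quartile scaling and 178 with the replicate block. The median log2 fold change of the 33 genes was 0.21 after quantile normalization and 0.23 to 0.38 over the left-out libraries. Sign changes were found for *Pgam1* (-0.39 to 0.16), *Pfkfb4* (-0.33 to 0.18) and *Hif1a* (-0.067 to 0.42) over the left-out libraries, and for *Bnip3*, at -0.052 after quantile normalization, -0.012 after upper quartile scaling, -0.030 in voom and -0.32 to 0.41 over the left-out libraries. Of all tested genes, 70 were called higher and 54 lower under the strict rule, 47 and 55 after quantile normalization, and 125 and 153 in voom. They were 0 and 1 with all genes above 0, 3 and 6 without the variance trend, 12 and 8 with the replicate block, 0 and 1 without WT 1, 7 and 2 without WT 2, 47 and 47 without TG 1, and 66 and 41 without TG 2. With 1 library left out, the lone library of a genotype is assumed to vary like the others. The cause of these changes was not tested. Genes under about 1 FPKM rest on few reads, such as 9 and 14 for *Egln3* in WT.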
